A study of Homo sapiens with 9 samples.

Results

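The ADP-ribosyltransferase PARP9, its ubiquitin ligase partner DTX3L and 5 further antiviral members of the PARP family, PARP10, PARP11, PARP12, PARP14 and ZC3HAV1, were followed in RNA of 786-O cells after knockdown of TRIM28 or of PARP1. These 7 genes were taken from a table of 61806 genes by their symbols, and all 7 were among the 13562 genes with enough reads to be tested. The set was chosen by measured values of the same libraries, the fold changes against control in which PARP9 and DTX3L were lower while other interferon genes were higher. Their differences from control are therefore given as values without a test, and for the 7 genes only the direct comparison of the knockdowns was tested. Where other interferon-stimulated genes are counted as called higher or lower against control, the calls are a description and no test. All cells were 786-O, an established human line of clear cell kidney cancer without functional VHL, a tumour suppressor, and 1 line was used.

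There were 3 libraries of TRIM28 knockdown cells, 3 of PARP1 knockdown cells and 3 of control cells. The reagent is called siRNA in the treatment and title fields and shRNA in the description. Controls are given as wild type with a negative control, and as parental cells where the RNA extraction is described, so whether they were transfected is uncertain here. The libraries hold polyadenylated RNA, and no label says that libraries of a group came from separate cultures, so the spread between them may be technical. In such bulk RNA, fewer cells of a kind and less RNA per cell cannot be told apart.

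PARP family enzymes attach ADP-ribose to proteins and nucleic acids. PARP1 and PARP2 build chains of it at broken DNA, whereas most other members add a single unit or, like ZC3HAV1, have no transferase activity. PARP9 reads ADP-ribose through its macrodomains and works in a complex with DTX3L, a deltex-type E3 ligase that ubiquitylates histones and viral proteins. Most of these genes are induced by interferon through the ISGF3 complex, which holds IRF9 and binds interferon-stimulated response elements (ISRE), while gamma-activated sites (GAS) serve the response to interferon gamma.

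PARP9 and DTX3L lie head to head on chromosome 3, PARP9 on the minus strand from 122527924 to 122564577 and DTX3L on the plus strand from 122564338 to 122575203 (GRCh38). Their RefSeq starts at 122564300 and 122564338 are 38 bases apart. The stretch from 120 bases before to 10 bases after each start is shown for the genes with a match to the core of either element, each written 5′ to 3′ on its own strand, because 1 match serves both genes of the pair. Sequences are from RefSeq on GRCh38.p14. Capitals mark the ISRE core GAAANNGAAA, read on either strand, except in ZC3HAV1, where they mark the GAS core TTCNNNGAA. IFITM1, an interferon-induced membrane protein that blocks virus entry, is shown because it holds the same ISRE letters as the pair. The windows are chr3:122564291-122564420 (minus) for PARP9, chr3:122564218-122564347 (plus) for DTX3L and chr3:122680719-122680848 (plus) for PARP14. Those of PARP12, ZC3HAV1 and IFITM1 are chr7:140062942-140063071 (minus), chr7:139109711-139109840 (minus) and chr11:313920-314049 (plus).
PARP9: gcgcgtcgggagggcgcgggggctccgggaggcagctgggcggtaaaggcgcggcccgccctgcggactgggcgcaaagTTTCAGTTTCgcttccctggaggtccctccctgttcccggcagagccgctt
DTX3L: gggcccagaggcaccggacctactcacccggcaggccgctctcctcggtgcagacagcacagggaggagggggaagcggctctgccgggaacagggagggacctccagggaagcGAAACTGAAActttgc
PARP14: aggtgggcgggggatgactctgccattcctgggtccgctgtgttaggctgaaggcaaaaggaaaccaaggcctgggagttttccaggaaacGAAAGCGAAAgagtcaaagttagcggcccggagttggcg
PARP12: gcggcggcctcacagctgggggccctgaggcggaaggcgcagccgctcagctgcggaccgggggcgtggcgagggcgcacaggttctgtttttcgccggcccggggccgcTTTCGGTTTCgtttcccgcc
ZC3HAV1: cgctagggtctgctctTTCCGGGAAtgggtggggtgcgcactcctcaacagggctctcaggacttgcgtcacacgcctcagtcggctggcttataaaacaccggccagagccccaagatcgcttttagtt
IFITM1: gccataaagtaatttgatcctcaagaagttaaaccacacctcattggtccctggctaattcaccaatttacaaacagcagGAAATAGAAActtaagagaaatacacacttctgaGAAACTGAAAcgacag

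The single match between PARP9 and DTX3L reads GAAACTGAAA on the plus strand, at chr3:122564332-122564341. It spans positions -6 to 4 of DTX3L and -41 to -32 of PARP9, where it appears as its reverse complement. A second RefSeq start of PARP9, at 122564784, has no match in its window. PARP14 holds GAAAGCGAAA at -29 to -20, and a GAS core, TTCCAGGAA, at -40 to -32 that does not overlap it. PARP12 holds the ISRE core at -10 to -1, reading GAAACCGAAA on the opposite strand. ZC3HAV1 holds only the GAS core TTCCGGGAA, at -104 to -96, and PARP11 holds neither core in its window. RefSeq windows were at hand for 6 of the 7 genes, and PARP10 has none in the table used. Among all 35116 promoter windows of 250 bases before to 50 after a start, 3.57% hold the ISRE core, 7.66% the GAS core and 0.265% the letters GAAACTGAAA. IFITM1 holds those letters at the same positions relative to its start as DTX3L, -6 to 4, where they overlap a GAS core, and its RNA was higher in both knockdowns, by 1.36 ± 0.18 with TRIM28 knockdown and 1.68 ± 0.18 with PARP1 knockdown (log2 fold change ± SE against control). A further ISRE core of IFITM1, GAAATAGAAA, lies at -40 to -31. IFITM1 was picked after its values were seen, so they are a description. A match describes letters in a window and is not a binding measurement.

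Total counts ran from 11963110 to 20224374 per library. TRIM28, the corepressor of KRAB zinc finger proteins, had 44.0 to 58.0 CPM in its knockdown and 421 to 440 CPM in PARP1 knockdown libraries, against 316 to 381 CPM in control libraries. PARP1 had 4.48 to 6.82 CPM in its knockdown and 93.3 to 94.4 CPM in TRIM28 knockdown libraries, against 153 to 200 CPM in control libraries. CPM here are scaled by TMM factors to each library's total. At an adjusted p below 0.05, edgeR called 27.8% of tested genes in TRIM28 knockdown against control, 59.3% in PARP1 knockdown against control and 25.1% between the knockdowns. The counts behind these shares depended on single libraries in 2 comparisons. For TRIM28 knockdown against control, 3768 genes became 1537 or 1855 when control replicate 1 or 2 was left out, and 2116 when TRIM28 knockdown replicate 2 was. Between the knockdowns, 3407 became 1654 and 2254 without TRIM28 knockdown replicates 1 and 3, and 2149 and 1712 without PARP1 knockdown replicates 2 and 3. The renal epithelial factor PAX8 was present at 33.1 to 55.1 FPKM, and PTPRC, CD3E, MS4A1 and TYROBP of the leukocyte markers were listed at 0 FPKM in all 9 libraries. Of the other leukocyte markers CD68 had 0.40 to 1.08 FPKM, and CD79A, CD14 and LYZ reached 0.27, 0.19 and 0.06 FPKM. Of 10 renal line markers PAX2 and CA9 were low, at 0.38 to 1.04 and 0.23 to 1.32 FPKM. By edgeR, CDH6, CDH2, HAVCR1 and LHX1 were called lower in both knockdowns and KRT8 and KRT18 higher, and the other 4 did not pass. The 16 markers of leukocytes, endothelium and fibroblasts summed to 1.34 to 2.05 FPKM in TRIM28 knockdown, 0.96 to 1.41 in PARP1 knockdown and 1.46 to 1.97 in control libraries.

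Ordered by length-normalised level in control cells, PARP12 was the most abundant of the 7 genes, at 10.99 to 11.42 FPKM, above ZC3HAV1 at 6.85 to 9.00 FPKM. PARP10 had 2.72 to 3.52 FPKM and DTX3L 1.88 to 3.01 FPKM, and these ranges overlapped. PARP9 followed at 0.91 to 1.7 FPKM, then PARP14 at 0.36 to 0.56 FPKM and PARP11 at 0.16 to 0.34 FPKM. The mean of PARP12 stood at percentile 74.6 of tested genes and that of PARP11 at percentile 9.7. In the knockdowns the order of the 4 upper genes by mean was the same, but PARP9 and PARP14 came together. PARP9 had 0.39 to 0.66 FPKM and PARP14 0.28 to 0.43 FPKM with TRIM28 knockdown, while with PARP1 knockdown PARP9 had 0.12 to 0.36 FPKM and PARP14 0.21 to 0.31 FPKM.

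**Figure D1:**
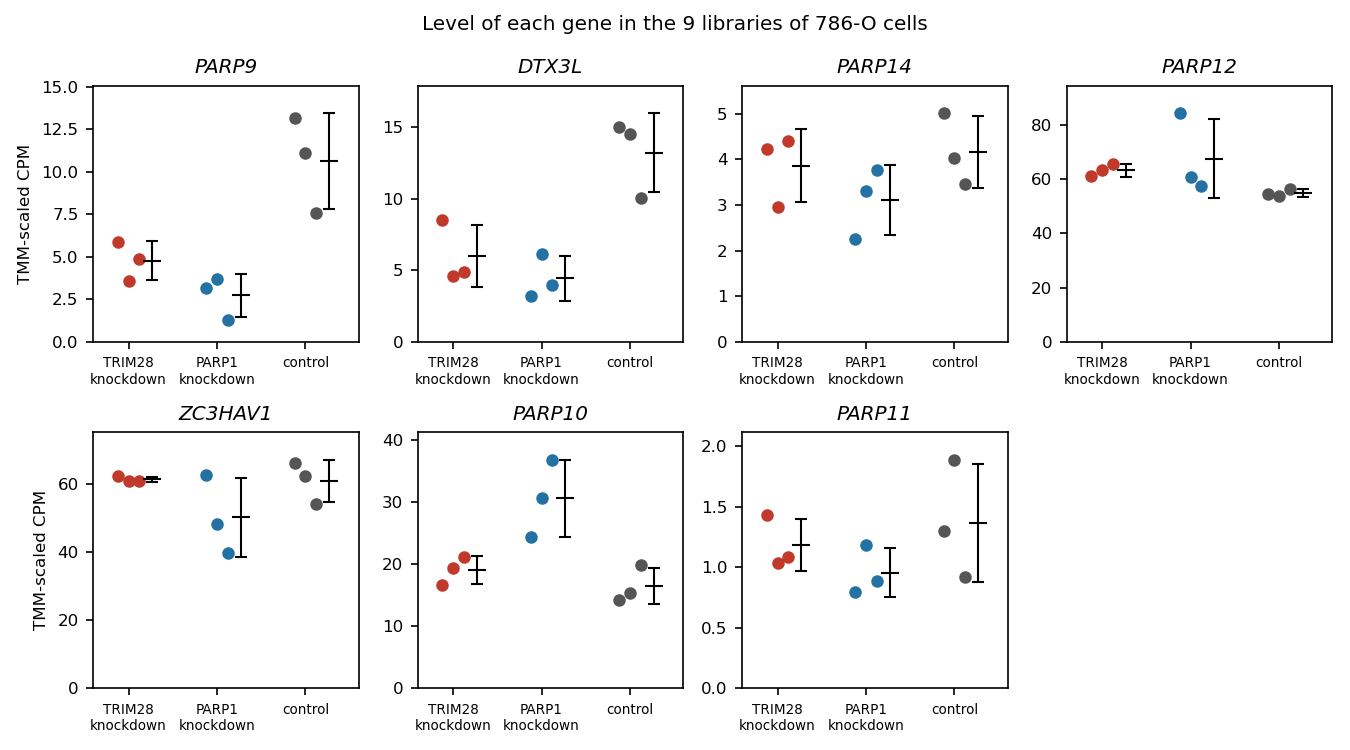
Level of each of the 7 genes in every library, in TMM-scaled CPM (vertical axes, each from 0). Points are libraries, bars the group mean with its SD (n = 3). PARP9 and DTX3L in both knockdowns lie below all control libraries, and PARP10 in PARP1 knockdown lies above all control libraries.

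PARP9 and DTX3L, the partners of the complex, were the 2 of 7 genes for which every library of both knockdowns lay below every control library. PARP9 had 5.85, 3.59 and 4.88 CPM in TRIM28 knockdown libraries, 3.18, 3.72 and 1.29 CPM in PARP1 knockdown libraries and 13.2, 11.1 and 7.60 CPM in control libraries. Each knockdown library being below each control library was the case for 25.3% of tested genes with TRIM28 knockdown and 33% with PARP1 knockdown. The share below control in both knockdowns was not counted. For PARP9 the knockdowns overlapped. PARP9 averaged 4.77 ± 1.14 CPM with TRIM28 knockdown and 2.73 ± 1.28 CPM with PARP1 knockdown, or 44.9% and 25.7% of the control mean of 10.6 ± 2.82 CPM (SD, n = 3 each). The log2 fold change against control was -1.14 ± 0.27 (SE) with TRIM28 knockdown and -1.93 ± 0.29 with PARP1 knockdown. These comparisons share the control libraries. Counts behind the values were low, 45 to 94 reads with TRIM28 knockdown, 13 to 48 with PARP1 knockdown and 165 to 274 in control libraries.

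DTX3L had 8.53, 4.62 and 4.88 CPM in TRIM28 knockdown libraries, 3.18, 6.17 and 3.96 CPM in PARP1 knockdown libraries and 15.1, 14.6 and 10.1 CPM in control libraries. Here too no knockdown library reached the lowest control library. The means were 6.01 ± 2.18 CPM with TRIM28 knockdown and 4.44 ± 1.55 CPM with PARP1 knockdown, 45.4% and 33.5% of the control mean of 13.2 ± 2.74 CPM (SD, n = 3 each). The log2 fold change was -1.13 ± 0.25 (SE) with TRIM28 knockdown and -1.58 ± 0.26 with PARP1 knockdown. The ratio of PARP9 to DTX3L, from their FPKM, was 0.527 ± 0.103 with TRIM28 knockdown and 0.413 ± 0.218 with PARP1 knockdown, against 0.513 ± 0.0451 in control cells (SD, n = 3 each). The groups overlap in this ratio, and the 3 PARP1 knockdown libraries ran from 0.207 to 0.642. The annotated genes overlap over 240 bases on opposite strands, and whether counting used the strand is not stated in the sources used.

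The call rule applied to all genes would count PARP9 and DTX3L of the 7 genes as lower in TRIM28 knockdown, where it called 17.5% of tested genes lower and 10.3% higher. In PARP1 knockdown it would count the same pair as lower and PARP10 as higher, where 32.2% of tested genes were lower and 27.1% higher. Since these contrasts chose the genes, the counts are no test of them and nothing is read from them. Of the members just inside and outside that choice, DTX3L at -1.13 was the smaller of the 2 lower genes with TRIM28 knockdown, and PARP11 at -0.20 ± 0.39 (SE) was the next lowest.

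**Figure D2:**
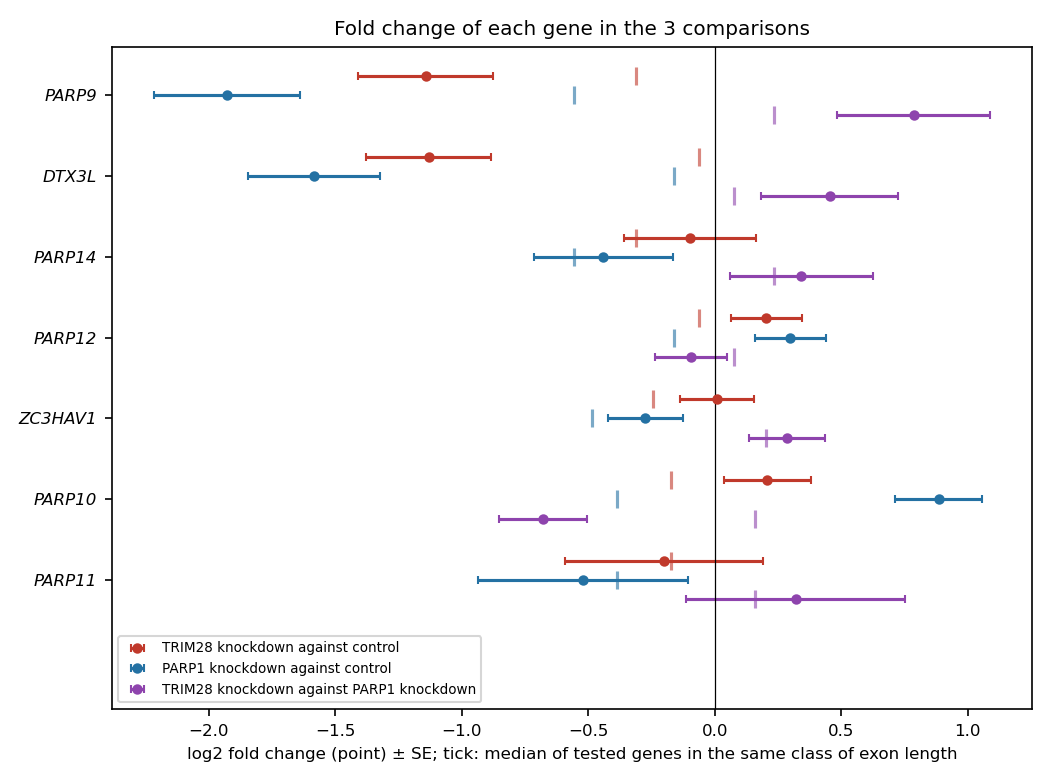
Log2 fold change (points) with its SE (bars) of each gene in TRIM28 knockdown against control, PARP1 knockdown against control, and TRIM28 against PARP1 knockdown. Vertical ticks give the median of tested genes in the same class of exon length; PARP9 and DTX3L lie left of their ticks against control, and PARP10 lies right of its tick with PARP1 knockdown.

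Between the knockdowns, PARP9 was 0.79 ± 0.30 (log2, SE) higher with TRIM28 than with PARP1 knockdown, with a 95% interval of 0.16 to 1.41, and missed the threshold (edgeR adjusted p = 0.0578). It passed without TRIM28 knockdown replicate 2, at 0.94, and without PARP1 knockdown replicate 1 or 2, at 0.91 and 1.04, and of the values with a single library left out the lowest was 0.48, without PARP1 knockdown replicate 3. Of 19 alternatives 6 passed, and the value was 0.27 on log2(FPKM + 1) by limma and 0.40 with length and GC trends removed. DTX3L differed by 0.45 ± 0.27 (95% interval -0.10 to 1.01, edgeR adjusted p = 0.232), an interval that includes no difference as well as a doubling. It ran from 0.11 without TRIM28 knockdown replicate 1 to 0.77 without PARP1 knockdown replicate 2, and was 0.25 without PARP1 knockdown replicate 1. Of all tested genes, 13.2% were higher and 11.9% lower in this comparison, and of the 7 genes PARP10 was lower and 6 did not pass.

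Fold changes in these libraries moved with gene length and base composition, and both partners have AT-rich exons, in GC classes 3 and 4 of 10 for PARP9 and DTX3L. With tested genes in 10 classes of equal size by exon length, median log2 fold changes ran from 0.33 in the shortest class to -0.39 in the longest with TRIM28 knockdown, and from 0.65 to -0.67 with PARP1 knockdown. PARP9 has 8938 exonic bases and lies in length class 9, where the medians were -0.31 with TRIM28 knockdown and -0.56 with PARP1 knockdown. DTX3L has 5768 exonic bases and lies in class 6, where the medians were -0.06 with TRIM28 knockdown and -0.16 with PARP1 knockdown. Against the genes of its own class, PARP9 stood at percentile 5.9 with TRIM28 knockdown and 2.9 with PARP1 knockdown, and DTX3L at 3.5 with TRIM28 knockdown and 7.4 with PARP1 knockdown. With the trends of length and GC content removed, PARP9 was at -0.64 with TRIM28 knockdown and -1.04 with PARP1 knockdown. DTX3L was at -0.81 with TRIM28 knockdown and -0.955 with PARP1 knockdown, so both partners were below control by less, in either knockdown, than before the removal.

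**Figure D3:**
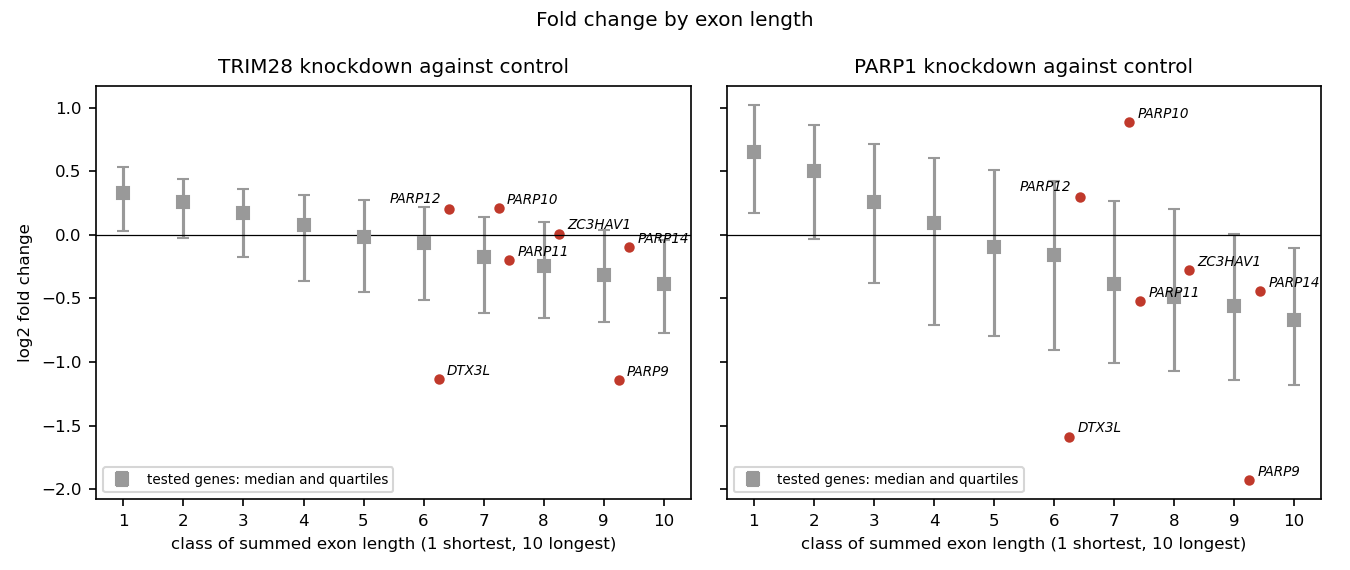
Median log2 fold change of tested genes with quartiles (grey) in 10 classes of summed exon length, and the 7 genes (red) at their own class, for TRIM28 knockdown against control (left) and PARP1 knockdown against control (right). Medians fall with length in both panels, and PARP9 and DTX3L lie below the lower quartile of their classes.

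The surroundings of the pair hold 1 other tested gene within 100 kb. KPNA1, an importin alpha that carries cargo into the nucleus, averaged 17.0 ± 0.91 CPM with TRIM28 knockdown and 11.5 ± 2.52 CPM with PARP1 knockdown, against 30.0 ± 4.48 CPM in control cells (SD, n = 3 each). It fell by 0.82 ± 0.17 with TRIM28 knockdown and fell by 1.37 ± 0.17 with PARP1 knockdown (log2, SE, edgeR adjusted p = 0.000885 and 3.72e-07). With length and GC trends removed its change with TRIM28 knockdown was -0.34 and did not pass (edgeR adjusted p = 0.0806). PARP15, the gene between DTX3L and PARP14, had 0 counts in all 9 libraries. PARP14 lies further along the plus strand.

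**Figure D4:**
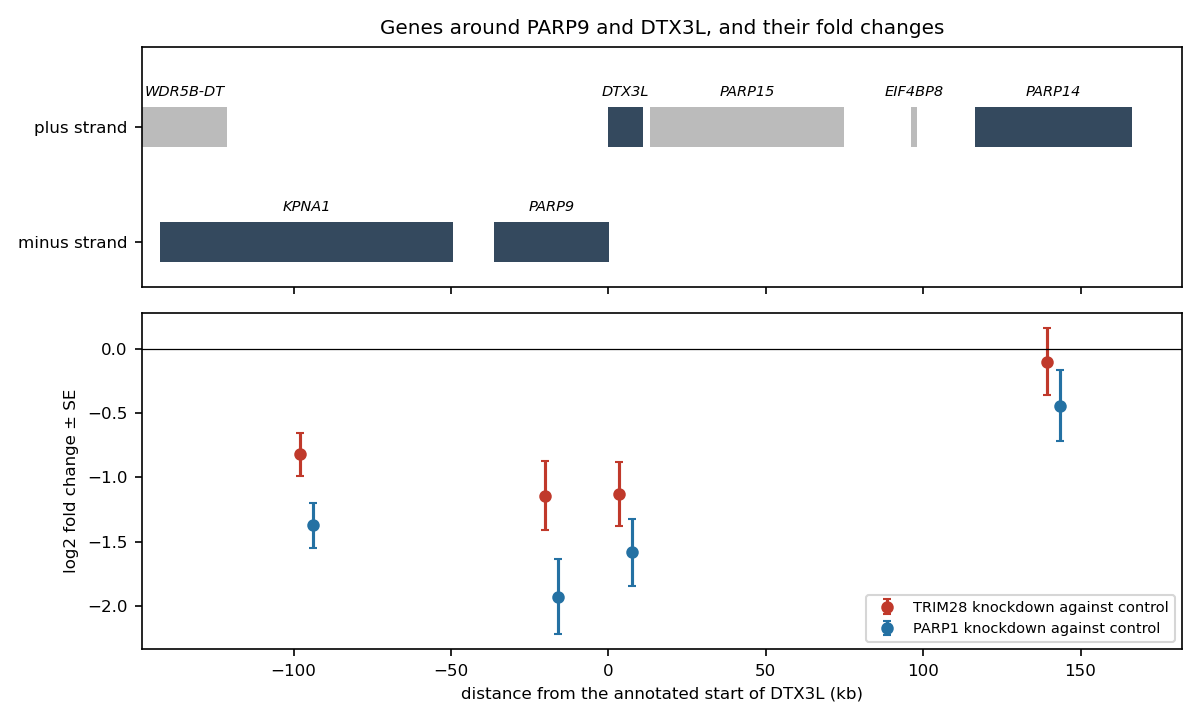
Genes around PARP9 and DTX3L by distance from the annotated start of DTX3L in kb (top, dark: tested, grey: not tested), with log2 fold change and SE of each tested gene against control (bottom). KPNA1, PARP9 and DTX3L lie below 0 in both knockdowns, and the SE bar of PARP14 reaches 0 with TRIM28 knockdown.

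PARP14, a large mono-ADP-ribosyltransferase with macrodomains that acts on STAT6 signalling, had 4.23, 2.95 and 4.40 CPM with TRIM28 knockdown, 2.25, 3.30 and 3.76 CPM with PARP1 knockdown and 5.00, 4.02 and 3.46 CPM in control libraries. All groups overlapped. Its log2 fold change was -0.10 ± 0.26 (SE) with TRIM28 knockdown and -0.44 ± 0.27 with PARP1 knockdown. These signs turned to 0.43 and 0.48 once length and GC trends were removed. Between the knockdowns it differed by 0.34 ± 0.28 (95% interval -0.23 to 0.92, edgeR adjusted p = 0.398). PARP14 shares chromosome 3 and an ISRE core with the pair, and at 37 to 104 reads a library its difference from control was within the spread.

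PARP12 and ZC3HAV1 both carry CCCH zinc fingers and a WWE domain. ZC3HAV1, also called ZAP, binds CpG-rich viral RNA and directs it to decay, and PARP12 is a mono-ADP-ribosyltransferase that restricts several RNA viruses. PARP12 had 61.0, 63.2 and 65.6 CPM with TRIM28 knockdown, 84.2, 60.8 and 57.4 CPM with PARP1 knockdown and 54.6, 53.7 and 56.5 CPM in control libraries. Every knockdown library was above every control library, as was the case for 21.2% of tested genes with TRIM28 knockdown and 30.5% with PARP1 knockdown. The share above control in both knockdowns was not counted. The log2 fold changes were small, 0.20 ± 0.14 (SE) with TRIM28 knockdown and 0.30 ± 0.14 with PARP1 knockdown. By library totals in place of TMM factors, PARP12 was at -0.01 with PARP1 knockdown, so its direction there depends on the scaling. Between the knockdowns it differed by -0.10 ± 0.14 (95% interval -0.39 to 0.20, edgeR adjusted p = 0.665).

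ZC3HAV1 had 62.2, 60.7 and 60.9 CPM with TRIM28 knockdown, 62.5, 48.3 and 39.6 CPM with PARP1 knockdown and 66.2, 62.2 and 54.1 CPM in control libraries. The TRIM28 knockdown libraries lay within the range of the controls, and PARP1 knockdown replicates 2 and 3 lay below it. Its log2 fold change was 0.01 ± 0.15 (SE) with TRIM28 knockdown and -0.28 ± 0.15 with PARP1 knockdown, and with length and GC trends removed 0.47 and 0.57. Between the knockdowns it differed by 0.28 ± 0.15 (95% interval -0.02 to 0.59, edgeR adjusted p = 0.166). Without PARP1 knockdown replicate 1 this difference was 0.48 and passed (edgeR adjusted p = 0.00523).

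PARP10, a mono-ADP-ribosyltransferase with ubiquitin-interacting motifs that was first described as a MYC-binding protein, was higher with PARP1 knockdown. It had 16.6, 19.4 and 21.2 CPM with TRIM28 knockdown, 24.4, 30.6 and 36.8 CPM with PARP1 knockdown and 14.2, 15.4 and 19.8 CPM in control libraries. All PARP1 knockdown libraries were above all others, while TRIM28 knockdown and control libraries overlapped. Of tested genes, 30.5% had all PARP1 knockdown libraries above all control libraries, and 18.7% had them above all TRIM28 knockdown libraries. The share with both was not counted. The mean with PARP1 knockdown, 30.6 ± 6.21 CPM, was 186% of the control mean of 16.5 ± 2.94 CPM (SD, n = 3 each), a log2 fold change of 0.89 ± 0.17 (SE), and that with TRIM28 knockdown was 0.21 ± 0.17. Between the knockdowns PARP10 was lower with TRIM28 knockdown, by -0.68 ± 0.17 on the log2 scale (95% interval -1.03 to -0.32, edgeR adjusted p = 0.00633). This call was lost without TRIM28 knockdown replicate 1, at -0.59 (edgeR adjusted p = 0.0551), on log2(FPKM + 1) by limma, at -0.39, and with length and GC trends removed, at -0.30. At 66.9% GC in its exons PARP10 lies in the highest of 10 GC classes, where the median was 0.24 with TRIM28 knockdown and 0.70 with PARP1 knockdown, and with these trends removed its value with PARP1 knockdown was 0.47. On chromosome 8 it overlaps GRINA on the opposite strand over 3360 bases, and GRINA reached 4180 reads in a library, so that part of the PARP10 reads is uncertain where strand was not used.

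PARP11, a mono-ADP-ribosyltransferase tied to nuclear pores and to turnover of the interferon receptor IFNAR1, was at the edge of detection with 9 to 39 reads a library. It had 1.43, 1.04 and 1.09 CPM with TRIM28 knockdown, 0.795, 1.18 and 0.890 CPM with PARP1 knockdown and 1.299, 1.888 and 0.9217 CPM in control libraries. All groups overlapped, and the log2 fold change was -0.20 ± 0.39 (SE) with TRIM28 knockdown and -0.52 ± 0.42 with PARP1 knockdown. Between the knockdowns the difference was 0.32 ± 0.43, with a 95% interval of -0.57 to 1.21 that includes both no difference and a 2-fold one (edgeR adjusted p = 0.632).

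Interferon genes in the same libraries were split. Of 58 tested interferon-stimulated genes 21 were called higher and 8 lower with TRIM28 knockdown, 36.2% and 13.8% of the list against 10.3% and 17.5% of all tested genes. The median log2 fold change was 0.24 against -0.02 over all tested genes. With PARP1 knockdown 25 were called higher and 16 lower, 43.1% and 27.6% of the list against 27.1% and 32.2% of all tested genes, with a median of 0.18 against -0.07. The list shaped the choice of the 7 genes, so its counts are a description. The 8 lower with TRIM28 knockdown became 3 when TRIM28 knockdown replicate 2 or 3 was left out, and 2 or 3 when control replicate 1 or 2 was. With length and GC trends removed, 19 were higher and 2 lower with TRIM28 knockdown and 26 higher and 9 lower with PARP1 knockdown, and by library totals 17 were higher and 23 lower with PARP1 knockdown. OASL, which enhances RIG-I signalling, averaged 502 ± 23.7 CPM with TRIM28 knockdown and 695 ± 80.5 CPM with PARP1 knockdown, against 245 ± 9.57 CPM in control cells (SD, n = 3 each). ADAR, the editor of double-stranded RNA, had a log2 fold change of -1.19 ± 0.14 with TRIM28 knockdown and -1.91 ± 0.15 with PARP1 knockdown (SE). Of 47 such genes with a RefSeq window, 32 hold the ISRE core, 12 of the 16 higher with TRIM28 knockdown and 4 of the 7 lower. With PARP1 knockdown the core was held by 12 of 19 higher and 8 of 14 lower genes. Of the genes not passing, 16 of 24 held it with TRIM28 knockdown and 12 of 14 with PARP1 knockdown. Among all genes with a window, 4.38% hold the core.

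Signalling genes upstream of the interferon response were also measured. The kinase JAK1, which serves the interferon receptors, fell by 1.15 ± 0.18 with TRIM28 knockdown and fell by 1.74 ± 0.18 with PARP1 knockdown (log2, SE, edgeR adjusted p = 4.34e-05 and 2.5e-08). JAK1 was at -0.62 with TRIM28 knockdown and -0.79 with PARP1 knockdown once length and GC trends were removed. Of 22 tested interferon signalling genes, some of them on the previous list, 1, the ISG15 protease USP18, was called higher and 5 lower with TRIM28 knockdown, and 6 higher and 9 lower with PARP1 knockdown. With TRIM28 knockdown 4.55% of the list were higher and 22.7% lower, against 10.3% and 17.5% of all tested genes. With PARP1 knockdown 27.3% were higher and 40.9% lower, against 27.1% and 32.2% of all tested genes. Both comparisons had medians below 0, at -0.22 with TRIM28 knockdown and -0.23 with PARP1 knockdown, against -0.02 and -0.07 over all tested genes. USP18, itself an interferon-stimulated gene, was at 0.51 without TRIM28 knockdown replicate 1 and at 0.47 without control replicate 2, and was not called in either. Its call is a description, as for the other interferon-stimulated genes. IRF9, the DNA-binding subunit of ISGF3, was at 0.96 ± 0.26 with PARP1 knockdown (log2, SE) and at 0.23 on log2(FPKM + 1) by limma, and STAT2 was at -0.07 with TRIM28 knockdown and -0.32 with PARP1 knockdown.

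**Figure D5:**
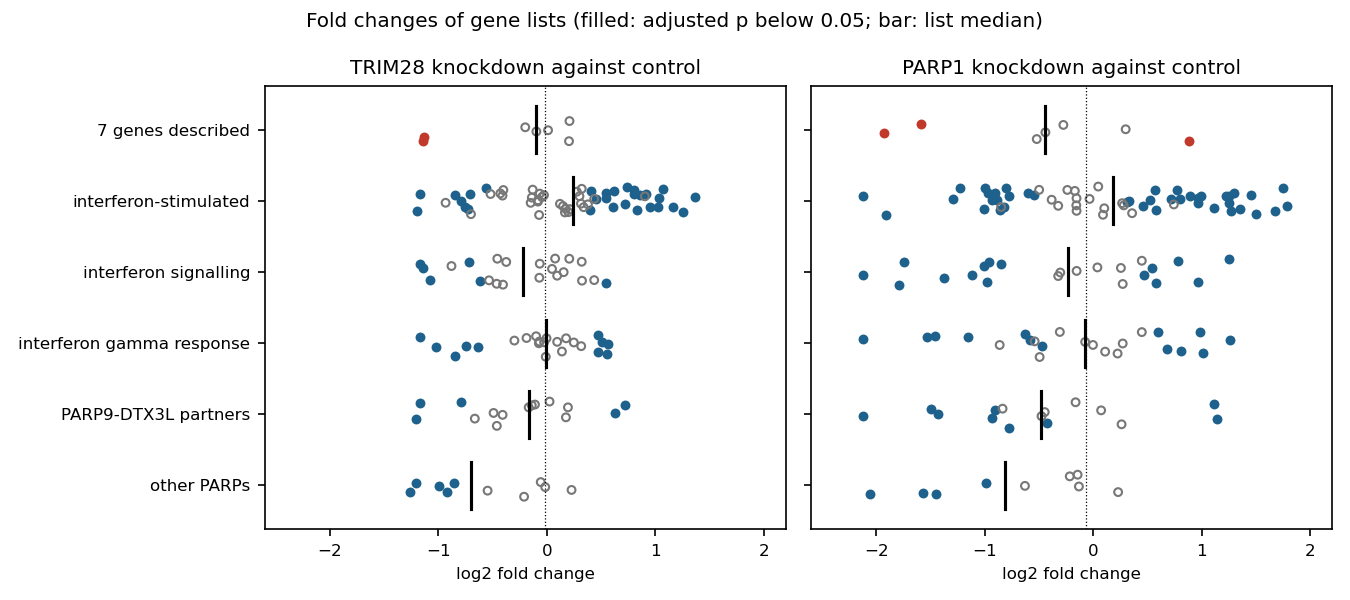
Log2 fold changes of single genes (points, filled at an adjusted p below 0.05) in 6 gene lists, with list medians (bars) and the median of all tested genes (dotted line), for TRIM28 knockdown (left) and PARP1 knockdown (right) against control. Filled points lie on both sides of 0 among interferon-stimulated genes, and the knocked-down PARP1, at -4.99 in the right panel, lies beyond the axis. For interferon-stimulated genes and for any genes that these contrasts chose, such as PARP9 and DTX3L, filling is a description and no test.

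Partners and pathway genes of the complex were also mixed. Of 15 tested partners 2 were called higher and 3 lower with TRIM28 knockdown, 13.3% and 20% against 10.3% and 17.5% of all tested genes, shares near the background. With PARP1 knockdown 2 were called higher and 7 lower, 13.3% and 46.7% against 27.1% and 32.2%. The medians were -0.17 with TRIM28 knockdown and -0.48 with PARP1 knockdown. By library totals 11 were lower with PARP1 knockdown, and with length and GC trends removed 3 were. The DNA damage protein UIMC1, a reader of ubiquitin chains, fell by 0.79 ± 0.19 with TRIM28 knockdown and fell by 1.43 ± 0.20 with PARP1 knockdown (log2, SE, edgeR adjusted p = 0.0037 and 1.5e-06). IFI35, an interferon-induced partner of NMI, also belongs to the interferon-stimulated list and was at 0.72 ± 0.16 with TRIM28 knockdown and 1.11 ± 0.16 with PARP1 knockdown (log2, SE). It was at 0.31 with TRIM28 knockdown and 0.24 with PARP1 knockdown once those trends were removed. Of the 10 other PARP genes tested, which include the knocked-down PARP1, 5 fell and 5 did not pass in each knockdown by edgeR, or 50% lower against 17.5% of all tested genes with TRIM28 knockdown and 32.2% with PARP1 knockdown, with medians of -0.70 with TRIM28 knockdown and -0.81 with PARP1 knockdown. PARP4, the vault PARP, fell by 1.26 ± 0.24 with TRIM28 knockdown and fell by 2.06 ± 0.26 with PARP1 knockdown (edgeR adjusted p = 0.000459 and 3.5e-07). The deltex family had 2 of 4 other members tested, and DTX2 was at 0.30 ± 0.14 with TRIM28 knockdown and rose by 0.47 ± 0.14 with PARP1 knockdown (edgeR adjusted p = 0.104 and 0.00547), a call lost by library totals, at 0.14. Without control replicate 3 its value with TRIM28 knockdown was 0.41 and passed.

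The genes whose levels ran closest to the mean log2 CPM of PARP9 and DTX3L over the 9 libraries were CMPK1, a nucleotide kinase, with Pearson r = 0.995, RIOK3 with 0.994, CD164 with 0.993, NSF with 0.992 and CDK15 with 0.992. They were ranked among 8459 genes, and the 9 points share 3 groups and their depths. Their log2 fold changes ranged from -1.02 for NSF to -0.42 for CD164 with TRIM28 knockdown and from -1.79 for NSF to -0.62 for CD164 with PARP1 knockdown. Among the other 5 of the 7 genes the same r was 0.721 for PARP11, 0.589 for ZC3HAV1 and 0.585 for PARP14. It was -0.585 for PARP12 and -0.849 for PARP10. Of the 8459 ranked genes, 2477 had a higher r than PARP11, 2949 than ZC3HAV1 and 2958 than PARP14. For PARP12 and PARP10 these counts were 4838 and 6433.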

How the data were processed

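RNA-seq libraries of 786-O cells, 3 in each of 3 groups, were analysed from 1 table. The table deposited by the authors holds, per the file headers, a raw read count and an FPKM for each gene and library; the counts are whole numbers without scaling. The deposited table also gives another quantity per gene, the summed exon length. The submitters' processing notes name GRCh38, STAR 2.7.9a and featureCounts 2.0.1, beside Trim Galore 0.6.6 and FastQC 0.11.9, with DESeq2 1.30.0 and R 4.0.3; strand setting and annotation release: not given in the sources used here. Columns were matched to libraries by name, and the endings PARP11, PARP12 and PARP13 in column names stand for PARP1 knockdown replicates 1, 2 and 3.

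Counts were tested by edgeR 4.0.16 (R 4.3.3) with its quasi-likelihood test, TMM factors and its filter on low counts, in 1 fit of 3 groups with 6 residual degrees of freedom. P-values were two-sided and adjusted by Benjamini-Hochberg over 13562 genes at 0.05. Alternatives were DESeq2 1.42.0 and its size factors, library totals, no filter, limma 3.58.1 on log2(FPKM + 1) or + 0.1 for genes with a mean FPKM of at least 0.5, fits of only the groups compared, the replicate number as a block, removal of length and GC trends (lowess span 0.3, GC known for 98.7% of genes), and each library left out. The code was tested on simulated counts of TRIM28 knockdown against control, where edgeR recovered 71.2% of 2-fold changes with 6 false calls. With a length trend added to the simulated knockdown, edgeR made 502 false calls, and 10 once the trend was removed. The main fit leaves such trends in. Replicates of every group differed beyond sampling noise.

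The 7 genes and the 10 gene lists were chosen with earlier results of these data known. Open to naming were the 7 genes, the targets, the cell type markers, tested genes within 100 kb of PARP9 or DTX3L and the 5 genes with the highest r. So were up to 3 genes per list and direction with the smallest adjusted p, of which only a part is printed. A gene that this rule names is not reported here. STAT2, and IFITM1 as a promoter to print, were chosen after their values were seen. Promoter windows are from RefSeq on GRCh38.p14.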

Additional observations from a re-analysis of the deposited data

How the results depend on the processing

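PARP9 and DTX3L kept their sign against control in all 19 alternatives. On log2(FPKM + 1) by limma, PARP9 was at -0.60 with TRIM28 knockdown and -0.87 with PARP1 knockdown, and DTX3L at -1.09 with PARP1 knockdown. With length and GC trends removed these were -0.64, -1.04 and -0.955. Leaving out single libraries gave -1.31 to -0.94 for PARP9 and -1.47 to -0.95 for DTX3L with TRIM28 knockdown, and -2.18 to -1.62 and -1.90 to -1.38 with PARP1 knockdown. Between the knockdowns, PARP9 passed by DESeq2 at 0.77 and without the low-count filter at 0.80, and ranged from 0.48 to 1.04 with single libraries left out. It passed in 6 of 19 alternatives and did not by limma on log2(FPKM + 1), at 0.27, with the length trend removed, at 0.59, or with length and GC trends removed, at 0.40, and its adjusted p reached 0.35. DTX3L ranged from 0.11 to 0.77 with single libraries left out and passed in none of the 19. PARP10 did not pass by limma on log2(FPKM + 1), at -0.39, or with length and GC trends removed, at -0.30, and ranged from -0.82 to -0.53 with single libraries left out. ZC3HAV1 ranged from 0.14 to 0.48 in the same comparison with single libraries left out. Over all 19 alternatives it ranged from -0.098 to 0.48, and 18 of the 19 kept the sign. The cause was not tested.

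Counts of called genes with TRIM28 knockdown against control were 3768, and 2353 by limma on log2(FPKM + 0.1) and 1537 to 4935 with single libraries left out. Between the knockdowns they were 3407, and 1983 with length and GC trends removed and 1654 to 4714 with single libraries left out. By library totals the higher and lower calls were 453 and 2856 with TRIM28 knockdown, 2024 and 5803 with PARP1 knockdown and 2350 and 640 between the knockdowns, and the median of all genes moved by -0.16, -0.33 and 0.17. With length and GC trends removed the splits were 1474 and 1418, 3236 and 3063, and 957 and 1026.

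Directions turned for other genes as follows. With length and GC trends removed, ADPRS, at 0.42 with TRIM28 knockdown before, was at -0.03. In PARP1 knockdown TRIM28 moved to -0.215 with 0.31 before, PSMB10 to -0.013 with 0.98 before, MACROD1 to -0.14 with 0.97 before and EXOSC3 to 0.53 with -0.25 before. Between the knockdowns PSMB10 moved to 0.057 with -0.47 before. TRIM28 was also at -0.011 in PARP1 knockdown by library totals and -0.013 by limma with either pseudocount.

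Replicate numbers are shared by the groups. Same-numbered libraries deviated together with correlations of -0.08 to 0.14, and 1 of 9 libraries correlated best with its own number in both other groups. With 3 libraries a group this cannot decide whether the numbers pair the samples. With the replicate block 4085, 8071 and 3662 genes passed in the 3 comparisons, and PARP9 between the knockdowns was at 0.85 and passed (edgeR adjusted p = 0.0378). PARP11 and PARP14 were below the FPKM minimum, so limma gave no value for them. Low counts limit PARP11, PARP14 and PARP9 most.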

Other observations

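Shares of all tested genes called higher and lower were 10.3% and 17.5% with TRIM28 knockdown and 27.1% and 32.2% with PARP1 knockdown. The cofactors of ZC3HAV1, which include its E3 ligase TRIM25 and the RNA exosome, had 4 of 16 tested members higher and 6 lower with TRIM28 knockdown, and 6 higher and 7 lower with PARP1 knockdown, with medians of -0.05 and -0.21. That was 25% higher and 37.5% lower with TRIM28 knockdown, and 37.5% higher and 43.8% lower with PARP1 knockdown. The 4 became 2 without TRIM28 knockdown replicate 1 or 2 and 1 without control replicate 1 or 2. DDX17, a helicase that works with ZC3HAV1, fell by 1.16 ± 0.17 with TRIM28 knockdown and fell by 2.16 ± 0.18 with PARP1 knockdown (log2, SE, edgeR adjusted p = 2.22e-05 and 6.31e-10). EXOSC5, a core exosome subunit, rose by 0.60 ± 0.15 with TRIM28 knockdown and 1.15 ± 0.15 with PARP1 knockdown (edgeR adjusted p = 0.00562 and 7.66e-07). Of 10 tested erasers and readers of ADP-ribose, 2 were higher and 2 lower with TRIM28 knockdown, and 2 higher and 3 lower with PARP1 knockdown, or 20% each way with TRIM28 knockdown and 20% and 30% with PARP1 knockdown. The 2 higher with TRIM28 knockdown were lost without any 1 of its libraries or control replicate 1 or 2, and the 2 lower became 1 or 0 without the same libraries. The 3 lower with PARP1 knockdown became 5 without PARP1 knockdown replicate 3. The 2 higher genes were ADPRS and MACROD1 in both knockdowns. With length and GC trends removed, ADPRS turned sign with TRIM28 knockdown and MACROD1 with PARP1 knockdown. Of 23 tested interferon gamma response genes 5 were higher and 5 lower with TRIM28 knockdown, and 6 higher and 7 lower with PARP1 knockdown. These were 21.7% each way with TRIM28 knockdown, and 26.1% and 30.4% with PARP1 knockdown, where both shares lie near those of all genes. The 5 higher with TRIM28 knockdown became 1 without control replicate 1. PSMB10, among the 6 higher with PARP1 knockdown, turned sign there once length and GC trends were removed.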
